A study of Mus musculus with 6 samples.

Results

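Lbh and the core transcription factors of the heart were followed in whole hearts of 6 mice. The set held 10 genes: Lbh, Tbx5, Tbx20, Nkx2-5, Gata4, Gata6, Mef2c, Hand1, Hand2 and Myocd. Its members were all probe sets annotated to one of these genes alone. They made up 26 of the 45037 probe sets other than controls, and no probe set named a member together with another gene. Lbh was placed in the set because earlier results from these arrays showed it apart between the genotypes, and Myocd had already been seen apart between hearts of different description letters. Those values are therefore given as a description without a test, and the other genes were taken for their role in the heart.

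The hearts came from 3 EphB4 mutant and 3 wild-type mice of strain C57B6, and RNA of each was hybridised to an Affymetrix mouse expression array. Descriptions of mutant 3 and wild-type 3 began with eM, and those of mutants 1 and 2 and wild-types 1 and 2 with eI. The labels used here do not state what the letters mean, how old the mice were, their sex or what the mutation was. By its title the study asked how ephrin-B2 of the myocardium takes part in forming the ventricular wall. EphB4, on endothelial cells, is a receptor of ephrin-B2.

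Heart muscle identity is set by a small group of factors that bind neighbouring DNA sites and activate one another and the contractile genes. T-box, homeobox, GATA zinc finger, MADS-box and basic helix-loop-helix families each supply members, and myocardin is a coactivator that works through serum response factor. Lbh, named for the limb bud and heart, encodes a small transcriptional cofactor, and in cell assays its product lowered the activation of the Nppa promoter by Nkx2-5 and Tbx5.

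Levels are normalized log2 intensities, so a difference of 1 stands for a doubling, and differences are mutant minus wild-type or eM minus eI. Levels of different probe sets cannot be set against each other on such arrays. The hearts fell apart by letters more than by genotype. On the first principal component mutant 3 lay at 52.6 and wild-type 3 at 34.1, against -24.3 to -17.9 for the eI hearts. The beta-actin 3-prime minus 5-prime difference, a sign of RNA quality, was 0.77 and 0.51 in those eM hearts, against 0.28 to 0.41 in the eI hearts. Xist, the transcript of the inactive X chromosome, read 6.73, 11.75 and 6.78 in mutants 1, 2 and 3, against 11.76, 11.51 and 12.33 in wild-types 1, 2 and 3. Eif2s3y, a gene of the Y chromosome, read 9.56, 3.49 and 9.58 in those mutants, against 3.77, 3.79 and 3.52 in those wild-types. By these genes mutants 1 and 3 read as male and the other hearts as female. Sex was thus unevenly split between the genotypes, and its part was not tested beyond a fit with Xist added. Ephb4 itself read 8.14, 7.93 and 8.06 in the mutant hearts, against 7.83, 8.20 and 8.06 in the wild-type hearts, so its probe set did not separate the genotypes. Cardiomyocyte markers, a list that holds Nkx2-5, averaged 13.59 to 13.66 in mutant hearts, against 13.57 to 13.61 in wild-type hearts. Their mean was thus close in both genotypes.

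Lbh lies on chromosome 17, with 1 RefSeq transcript. The 250 bases before its start are shown because Lbh gave the widest separation of the genotypes in the set. The window covers chr17:72918055-72918304 on the plus strand of GRCm38.p6, taken from RefSeq, and runs 5′ to 3′.
Lbh: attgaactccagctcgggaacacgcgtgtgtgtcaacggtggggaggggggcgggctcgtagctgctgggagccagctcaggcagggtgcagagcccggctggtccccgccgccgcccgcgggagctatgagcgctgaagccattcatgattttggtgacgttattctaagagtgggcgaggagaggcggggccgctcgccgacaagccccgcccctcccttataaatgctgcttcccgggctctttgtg
The windows of this kind were searched on both strands for 5 motifs named after the families above: a T-box half-site (AGGTGT), an NK-2 site (AAGTG), a site of the GATA factors (GATAA), an E-box (CANNTG) and a MEF2 site (CTA and TAG with 4 bases between them). An NK-2 site can overlap an E-box. The Lbh window held 0 matches to any of the 5, so it has no capitals. The E-box was present in 66.2% of all 32851 promoter windows of this length, the NK-2 site in 40.7%, the GATA site in 22.6%, the T-box half-site in 11.8% and the MEF2 site in 3.2%. RefSeq windows were searched for 5 of the 10 genes, Lbh, Tbx20, Nkx2-5, Mef2c and Hand2, with 3 starts for Mef2c. No window was available for Tbx5, Gata4, Hand1 and Myocd. Gata6 was left out of the search, so its matches are not known here.

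Lbh was lower in mutant hearts at 1 of its 3 probe sets. Probe set 1451629_at read 9.95, 9.89 and 10.08 in mutants 1, 2 and 3, against 10.42, 10.50 and 10.49 in wild-types 1, 2 and 3. Every mutant heart lay below every wild-type heart, and the gap between the groups was wider than the spread within either. Means were 9.97 ± 0.10 in mutant and 10.47 ± 0.04 in wild-type hearts (SD, n = 3 each), a difference of -0.50 with a standard error of 0.10, or 1.41-fold higher in wild-type. Among eI hearts alone the difference was -0.54, and between the eM hearts -0.41. Mutant 2, in which Xist was at the level of the wild-type hearts, had the lowest value of the 6 at 1451629_at. That is 1 heart, and the part of sex in this difference was not tested with it. By size of its unadjusted p this probe set stood at rank 3 of 27022 tested, which describes how it came to be chosen and is no test of it.

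The other probe sets of Lbh did not separate the genotypes. At 1429088_at the levels were 10.11, 9.87 and 9.56 in mutants 1, 2 and 3, against 10.03, 10.17 and 9.75 in wild-types 1, 2 and 3, a difference of -0.13 (95% confidence interval -0.56 to 0.29). At 1425208_at they were 6.96, 6.60 and 6.49 in the mutant hearts, against 6.53, 6.81 and 6.52 in the wild-type hearts, a difference of 0.07. In both, the groups overlapped, and in both the eM hearts were the lowest 2 of the 6. The mean of the 3 probe sets differed by -0.19 between mutant and wild-type hearts. The probe sets thus disagree on the size of the difference, and the reason was not tested.

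Letters moved Lbh in a different pattern. Probe set 1451629_at, the one that separated the genotypes, differed by 0.09 between eM and eI hearts (adjusted p = 0.540, limma with Benjamini-Hochberg adjustment over all tested probe sets). Probe set 1429088_at was at 9.56 and 9.75 in the eM hearts, against 9.87 to 10.17 in the eI hearts, a difference of -0.39 (interval -0.65 to -0.13). That missed the threshold of 0.05 (adjusted p = 0.069), although the groups did not overlap. For 1425208_at the difference was -0.22 (adjusted p = 0.349). In whole hearts, fewer cells of a type and less RNA per cell cannot be told apart, here and in every comparison that follows.

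**Figure D1:**
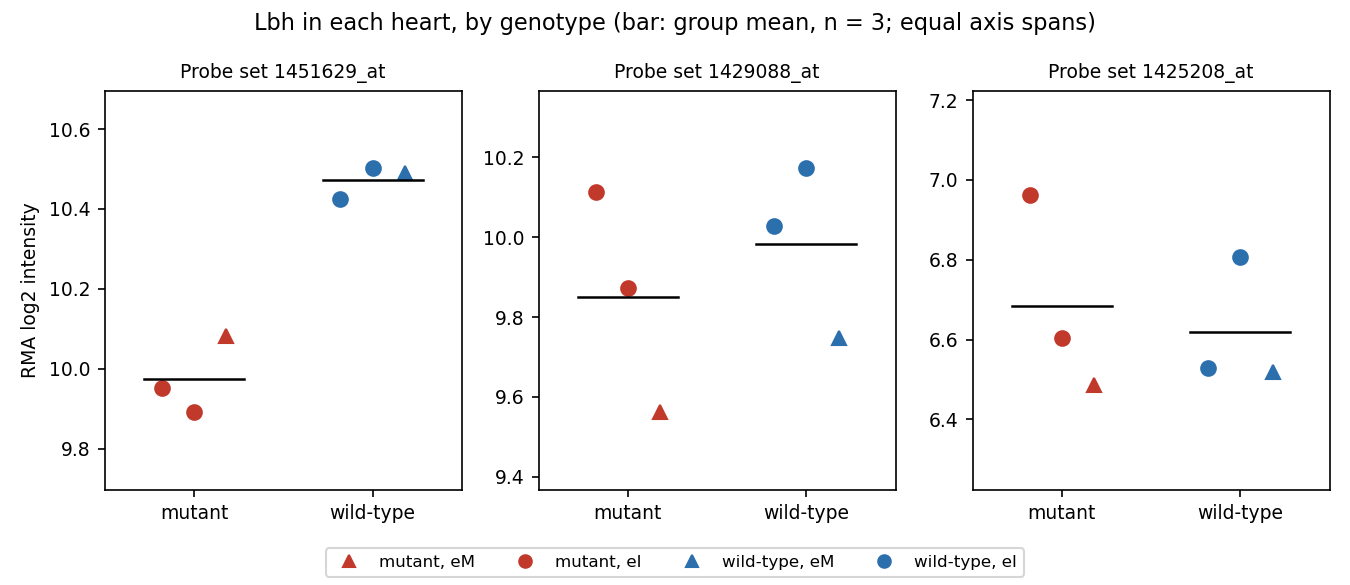
Normalized log2 intensity of Lbh (vertical axis, equal spans) in each heart at its 3 probe sets, mutant left and wild-type right of each panel; triangles are eM and circles eI hearts, and bars are group means of 3 hearts. At 1451629_at the mutant hearts lie between 9.89 and 10.08 and the wild-type hearts between 10.42 and 10.50, whereas at both other probe sets the genotypes overlap and the triangles lie lowest.

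By genotype, the core factors showed small differences and none passed the threshold. In the limma fit of all 6 hearts 0 of the 26 probe sets were called, as were 0 of all 27022 tested (0%), with a smallest adjusted p of 0.9999. At an unadjusted p under 0.05 stood 2 of the 26, against 1.17% of all probe sets, and they were the Lbh probe set described above and Hand1 1448750_at, or 1 of the 23 that do not read Lbh. Of the 26, 11 were higher and 15 lower in mutant hearts, with a median of -0.04, against 0.01 over all tested probe sets. The median size of the difference was 0.10 in the set and 0.08 over all. Groups did not overlap at 3 of the 26 (2 of 23 without Lbh), Lbh 1451629_at, Gata4 1418864_at and Hand1 1448750_at, against 4.67% of all probe sets. All 26 had passed the filter on low levels.

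Neither T-box factor had separate genotypes. Tbx5, needed for the atria, the left ventricle and the conduction system, read 7.88, 7.83 and 8.49 in mutants 1, 2 and 3 at 1425695_at, against 8.18, 8.19 and 8.55 in wild-types 1, 2 and 3. Each mutant heart was below the wild-type heart of the same letters, with differences of -0.33 within eI and -0.06 within eM, but the groups overlapped (difference over all hearts -0.24, interval -0.73 to 0.26). Its dim second probe set 1425694_at differed by -0.03, with -0.30 within eI and 0.52 within eM. Tbx20, which restrains Tbx2 and allows the chambers to grow, differed by 0.11 at 1453351_at, by -0.03 at 1422219_a_at and by -0.15 at 1425158_at.

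Nkx2-5, the homeobox factor of cardiac progenitors and muscle, was level between genotypes in the eI hearts. Its probe set 1449566_at read 10.65, 10.64 and 10.91 in mutants 1, 2 and 3, against 10.68, 10.57 and 10.45 in wild-types 1, 2 and 3. The eI difference was 0.02 and the eM difference 0.46, and the difference over all hearts was 0.17 (interval -0.12 to 0.46). Mutant 3 was the highest and wild-type 3 the lowest of the 6, so the spread by genotype rested on the eM pair.

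Among the GATA factors, Gata4 was the one with a probe set apart between genotypes. Gata4 is a zinc finger partner of Nkx2-5 and Tbx5 in heart muscle and endocardium. Its bright probe set 1418863_at read 9.47, 9.25 and 10.13 in mutants 1, 2 and 3, against 9.37, 9.36 and 9.73 in wild-types 1, 2 and 3, a difference of 0.13 with overlap. The dim probe set 1418864_at read 6.02, 6.01 and 6.62 in the mutant hearts, against 5.72, 5.85 and 5.99 in the wild-type hearts. There the mutant hearts were all higher, although mutant 2 and wild-type 3 nearly met, and the difference of 0.36 had an interval of -0.09 to 0.82. Gata6, a near relative with overlapping duties, differed by -0.10, 0.10 and 0.10 at its 3 probe sets.

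Mef2c, the MADS-box factor of the second heart field and of differentiating muscle, was measured by 5 probe sets. Their differences between genotypes were -0.05 at 1424852_at, -0.22 at 1451506_at, 0.06 at 1451507_at, -0.26 at 1421027_a_at and -0.15 at 1421028_a_at. None had separate groups, and 4 of the 5 were lower in mutant hearts.

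The Hand genes encode basic helix-loop-helix factors, Hand1 mainly of the left ventricle and outer curvature and Hand2 mainly of the right ventricle. Hand1 1448750_at read 5.71, 5.47 and 5.53 in mutants 1, 2 and 3, against 6.08, 5.95 and 5.72 in wild-types 1, 2 and 3, close to the level of 5.38 below which probe sets were left out. The groups all but met, with mutant 1 at 5.71 and wild-type 3 at 5.72 (difference -0.34, interval -0.66 to -0.03, unadjusted rank 204 of 27022). The brighter Hand1 1417525_at read 7.66, 7.54 and 8.51 in the mutant hearts, against 8.09, 7.72 and 8.08 in the wild-type hearts. It differed by -0.06, with -0.30 within eI and 0.43 within eM, so the Hand1 probe sets did not move together.

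Hand2 varied little between the hearts at its brightest probe set. Probe set 1436041_at read 11.30, 11.23 and 11.22 in mutants 1, 2 and 3, against 11.18, 11.18 and 11.27 in wild-types 1, 2 and 3, a difference of 0.04 with an interval of -0.17 to 0.25. Its other probe sets differed by 0.01 and -0.07. Myocd, which drives cardiac and smooth muscle genes with serum response factor, differed by -0.07 at 1425978_at with a wide interval of -1.12 to 0.99, and by 0.08 at 1425808_a_at.

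**Figure D2:**
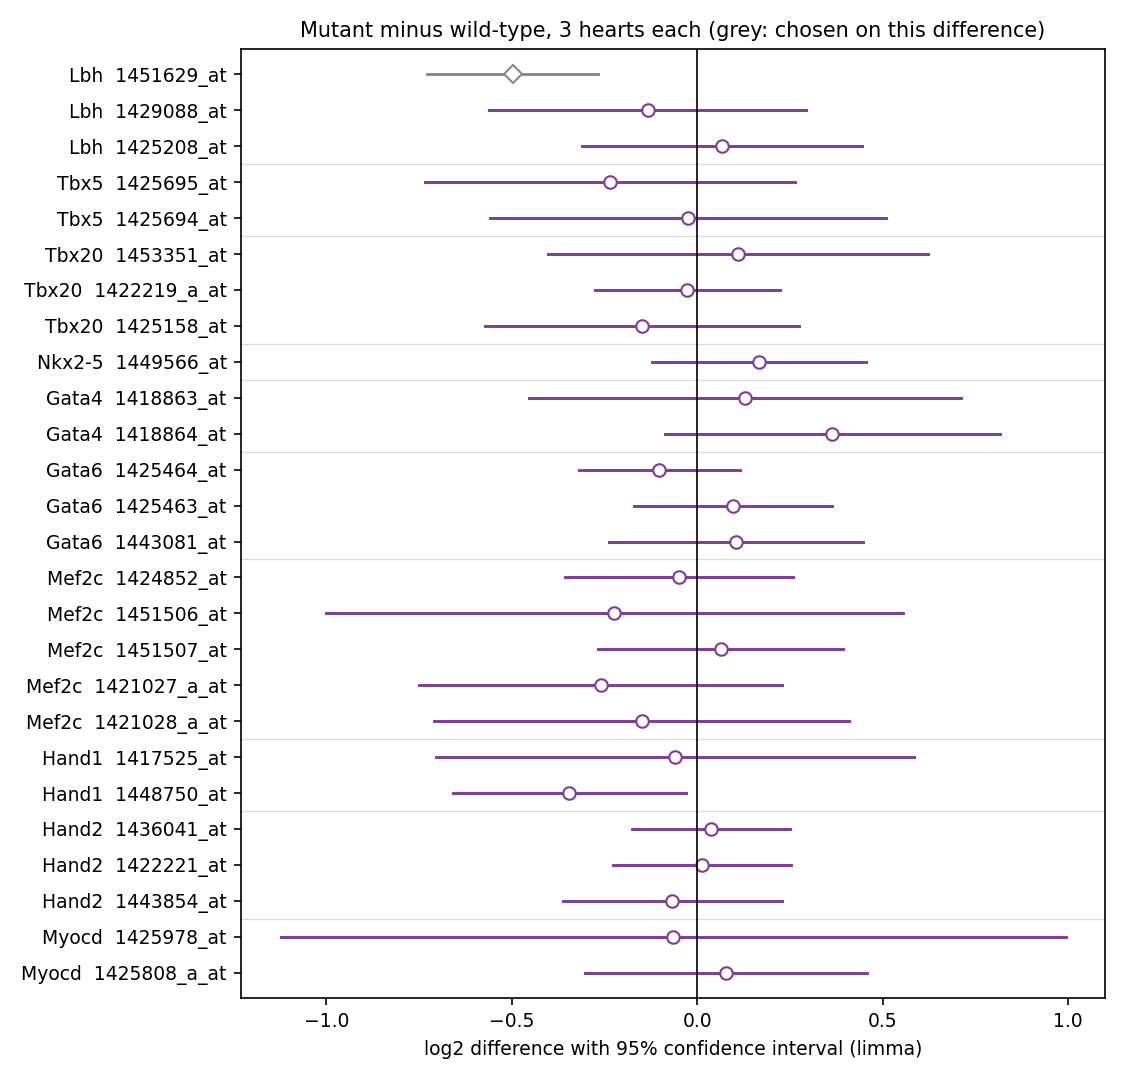
Log2 difference, mutant minus wild-type (horizontal axis), with its 95% confidence interval from limma for each of the 26 probe sets, n = 3 hearts per genotype. Open circles mark probe sets that did not pass the threshold, which all of them missed; the grey diamond is Lbh 1451629_at at -0.50, chosen on this difference and so not tested.

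Taking the letters as a block narrowed the genotype comparison without producing a call. With that block 5 of the 26 probe sets stood at an unadjusted p under 0.05, or 4 of 23 without Lbh, against 4.37% of all probe sets, and 0 passed after adjustment (smallest adjusted p 0.998). Besides Lbh they were Tbx5 1425695_at, Gata4 1418864_at, Mef2c 1451506_at and Hand1 1448750_at, of which Gata4 was higher and the others lower in mutant hearts. The sign of the difference was the same within eI and within eM at 14 of the 26.

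By letters some probe sets of the core factors passed the threshold, at a share not far above that of all probe sets. In the fit of all 6 hearts with genotype as a term, 4 of the 24 probe sets of the 9 genes other than Myocd passed the threshold, against 11.7% of all tested probe sets. All 4 were higher in eM, a direction in which 6.75% of all probe sets were called. They were Mef2c 1451506_at and 1421028_a_at, Tbx5 1425695_at and Gata4 1418863_at. Of the 24, 19 were higher and 5 lower in eM, with a median of 0.18, against -0.01 over all probe sets. The median size was 0.26 in the 24 and 0.18 over all. Groups did not overlap at 12 of the 24, against 43.1% of all probe sets. At 9 of the 24 they were separate and higher in eM, against 22.8% of all probe sets. With 2 eM hearts against 4, separate groups are common on this array, so the count of 12 is near the background. The 18S ribosomal RNA control probe set also differed by letters, at 11.62 and 12.34 in mutant 3 and wild-type 3, against 9.75 to 10.42 in the eI hearts, and its part in these calls was not tested.

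Mef2c rose most among the tested factors. Its probe set 1451506_at read 9.22 and 9.43 in eM mutant and wild-type hearts, against 8.38, 8.33, 8.58 and 8.59 in mutant 1, mutant 2, wild-type 1 and wild-type 2. Both eM hearts lay above all eI hearts by more than the range of the eI hearts. The difference was 0.85 (interval 0.65 to 1.05, adjusted p = 0.00505), a 1.81-fold higher level in eM, with 0.86 within mutant and 0.84 within wild-type hearts. Probe set 1421028_a_at rose too, at 7.96 and 7.91 in the eM hearts, against 7.21 to 7.54 in the eI hearts, by 0.57 (interval 0.31 to 0.83, adjusted p = 0.0239). The other 3 Mef2c probe sets differed by 0.24, 0.27 and 0.43 and missed the threshold (adjusted p = 0.154, 0.121 and 0.094). All 5 were higher in both eM hearts than in any eI heart.

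Mef2c lies on chromosome 13 and has 34 RefSeq transcripts from several starts, and which of them each probe set reads was not tested. The window before its second start is shown because it was the one window with a T-box half-site among those searched for the set. It covers chr13:83523406-83523655 on the plus strand of GRCm38.p6, from RefSeq, with matches in capitals.
Mef2c: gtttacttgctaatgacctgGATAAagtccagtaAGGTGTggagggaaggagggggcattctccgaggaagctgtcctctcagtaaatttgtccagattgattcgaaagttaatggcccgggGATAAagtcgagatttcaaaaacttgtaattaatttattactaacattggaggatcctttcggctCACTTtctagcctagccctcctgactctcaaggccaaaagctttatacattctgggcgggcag
The capitals mark a T-box half-site 216 bases before the start, GATA sites 230 and 128 bases before it, and an NK-2 site on the other strand 63 bases before it. No E-box and no MEF2 site match lay in the window. The other 2 Mef2c windows each held 1 NK-2 match and 0 GATA matches, with 2 E-boxes in the first and 1 in the third. A match says only that these letters stand there.

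Tbx5 and Gata4 were higher in eM at their brighter probe sets. Tbx5 1425695_at read 8.49 and 8.55 in the eM mutant and wild-type hearts, against 7.83 to 8.19 in the eI hearts, a difference of 0.50 (interval 0.26 to 0.74, adjusted p = 0.0289). Gata4 1418863_at read 10.13 and 9.73 in those eM hearts, against 9.25 to 9.47 in the eI hearts, a difference of 0.57 (interval 0.26 to 0.88, adjusted p = 0.0401). The groups were separate in both genes, and the difference was larger in mutant than in wild-type hearts, at 0.63 and 0.37 for Tbx5 and 0.77 and 0.36 for Gata4. That inequality between genotypes was not past the threshold in either gene (interaction adjusted p = 0.923 and 0.916). Gata4 1418864_at differed by 0.40 (adjusted p = 0.081) and Tbx5 1425694_at by 0.34 (adjusted p = 0.312).

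Myocd had the widest gap by letters, the gap for which it had been noticed. Probe set 1425978_at read 9.87 in mutant 3 and 9.87 in wild-type 3, against 8.93, 8.44, 8.68 and 8.89 in mutant 1, mutant 2, wild-type 1 and wild-type 2. The eM hearts were alike and stood above every eI heart. The difference was 1.13, or 2.19-fold, with 1.18 within mutant and 1.09 within wild-type hearts. Its second probe set 1425808_a_at differed by 0.15 and overlapped, so the gap was seen at 1 of 2 probe sets.

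The remaining factors did not pass the threshold by letters. Hand1 1417525_at read 8.51 and 8.08 in eM mutant and wild-type hearts, against 7.54 to 8.09 in the eI hearts, a difference of 0.54 (adjusted p = 0.124), and 1448750_at differed by -0.18. Tbx20 differed by 0.34, -0.09 and 0.37 at its 3 probe sets, with adjusted p = 0.281, 0.596 and 0.090. Nkx2-5 differed by 0.04 (interval -0.26 to 0.34), with 0.27 within mutant and -0.18 within wild-type hearts. Gata6 differed by 0.002, 0.11 and 0.13, and the interval of its brightest probe set was -0.22 to 0.22. Those intervals bound the change of Nkx2-5 and Gata6 but do not show that the hearts were alike.

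Hand2 gave differences of 0.02, 0.01 and -0.19 by letters. Its brightest probe set was at 11.22 and 11.27 in the eM hearts, against 11.18 to 11.30 in the eI hearts, with an interval of -0.19 to 0.23. The dim 1443854_at was at 5.32 and 5.38 in the eM hearts, below the eI hearts at 5.44 to 5.69, and missed the threshold. The window before the Hand2 start is shown beside that of Mef2c as the promoter of a gene whose brightest probe set stayed within a narrow range in all 6 hearts. It covers chr8:57320733-57320982 on the plus strand of GRCm38.p6, from RefSeq.
Hand2: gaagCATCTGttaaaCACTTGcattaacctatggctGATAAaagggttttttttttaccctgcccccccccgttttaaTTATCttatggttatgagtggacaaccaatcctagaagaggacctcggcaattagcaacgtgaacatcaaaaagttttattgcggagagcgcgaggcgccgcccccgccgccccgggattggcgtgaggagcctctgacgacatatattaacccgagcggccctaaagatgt
The capitals mark E-boxes 246 and 235 bases before the start, an NK-2 site that overlaps the nearer of these E-boxes, and GATA sites 214 and 172 bases before it. No T-box half-site and no MEF2 site match lay there.

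**Figure D3:**
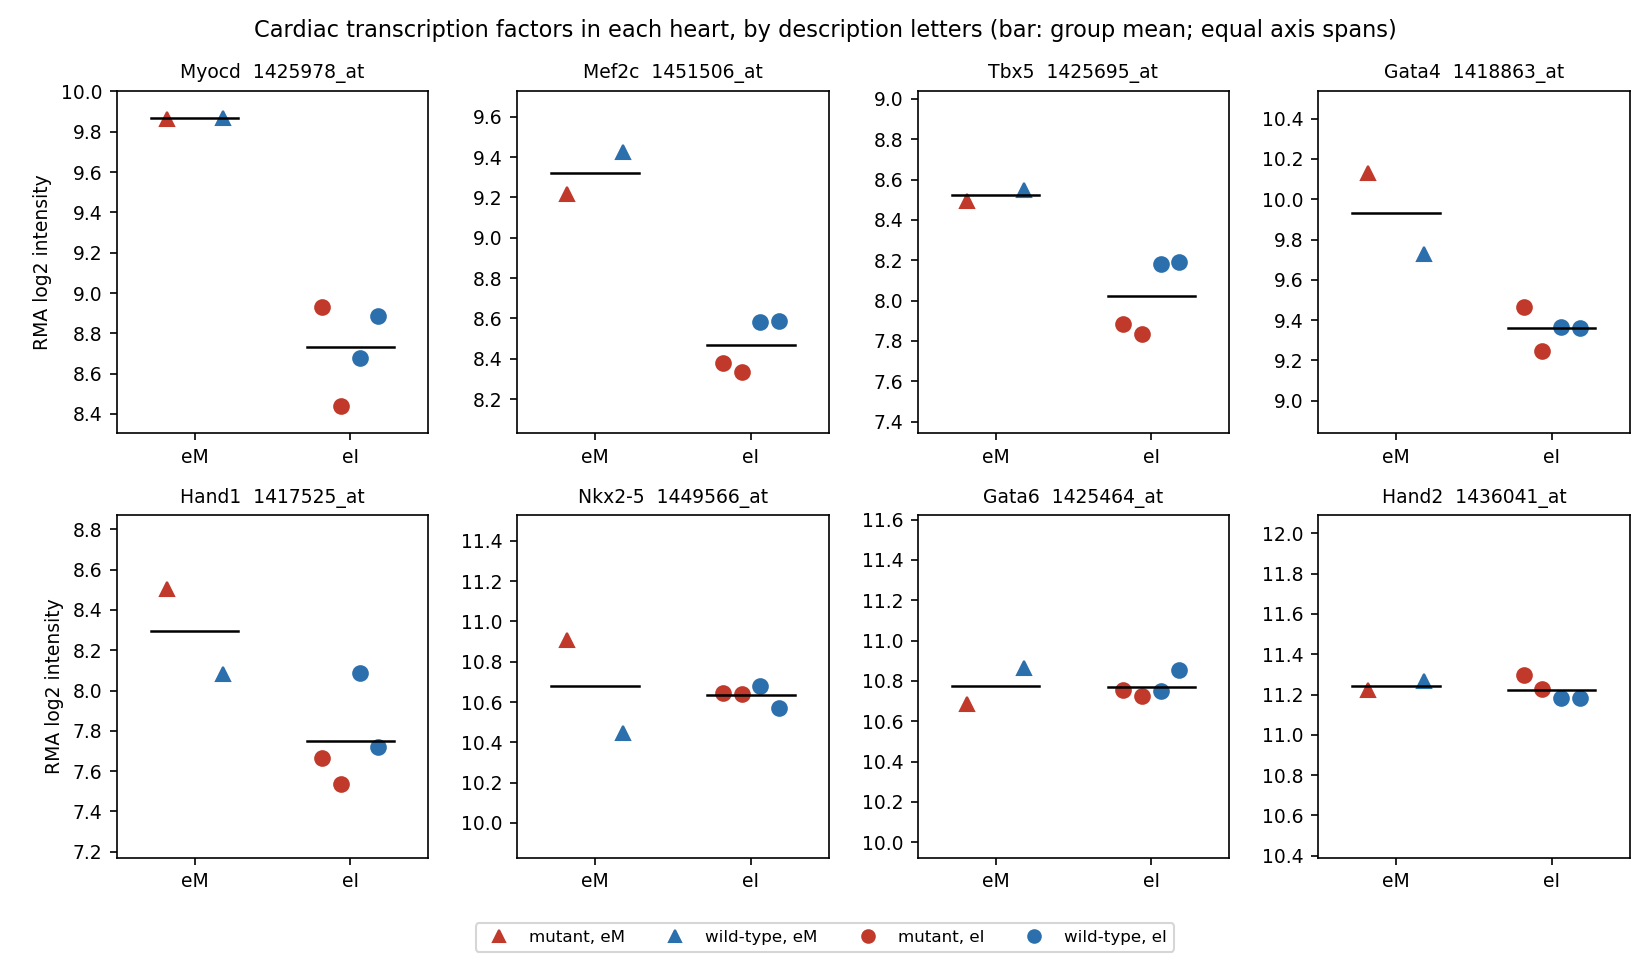
Normalized log2 intensity (vertical axis, equal spans) of 8 factors, each at its brightest probe set except Mef2c, in every heart; eM left and eI right of each panel, red mutant and blue wild-type, with bars at the mean of 2 eM and of 4 eI hearts. Both eM hearts lie above all eI hearts for Myocd, Mef2c, Tbx5 and Gata4, and not for Hand1, Nkx2-5, Gata6 and Hand2.

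**Figure D4:**
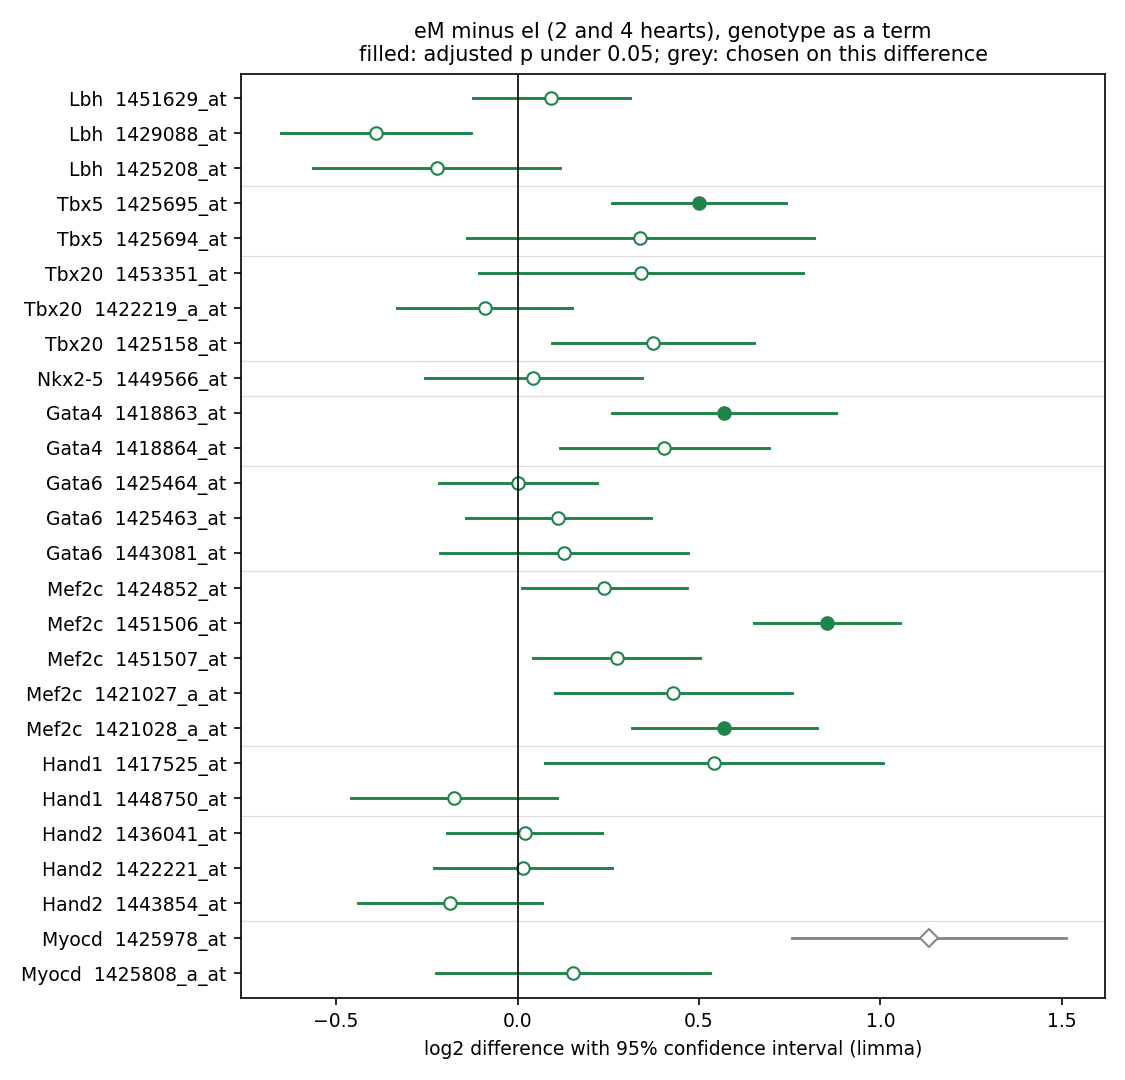
Log2 difference, eM minus eI (horizontal axis), with its 95% confidence interval from limma with genotype as a term, for each of the 26 probe sets (2 eM and 4 eI hearts). Filled circles passed an adjusted p of 0.05, namely Tbx5 1425695_at, Gata4 1418863_at, Mef2c 1451506_at and Mef2c 1421028_a_at; the grey diamond is Myocd 1425978_at at 1.13, which was chosen on this difference and so not tested.

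These calls rest on the 2 eM hearts. Without mutant 3 the calls among the 24 probe sets numbered 0 (smallest adjusted p 0.0933, and 1 call over all probe sets), and without wild-type 3 they numbered 1, Mef2c 1451506_at. Leaving out mutant 1 or mutant 2 left 1 call, Mef2c 1451506_at, and leaving out wild-type 1 or wild-type 2 gave 6 or 5. Adding Xist to the fit, an option taken up after the data had been seen, 1 call was made, Mef2c 1451506_at. Over all alternatives adjusted p ran between 0.00271 and 0.0933 for Mef2c 1451506_at, 0.0132 and 0.234 for Mef2c 1421028_a_at, 0.0176 and 0.255 for Tbx5 1425695_at, and 0.0243 and 0.337 for Gata4 1418863_at. Differences within the genotypes had the same sign at 20 of the 26 probe sets.

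Differences by letters did not vary between the genotypes beyond the threshold. The interaction of genotype and letters was called at 0 of the 26 probe sets and 0% of all, and 2 of the 26 stood at an unadjusted p under 0.05, against 5.32% of all. They were Tbx5 1425694_at, where eM minus eI was 0.75 in mutant and -0.07 in wild-type hearts, and Hand1 1417525_at, at 0.91 and 0.18 (limma adjusted p = 0.909 for each). A single eM heart per genotype stands behind each of these values.

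**Figure D5:**
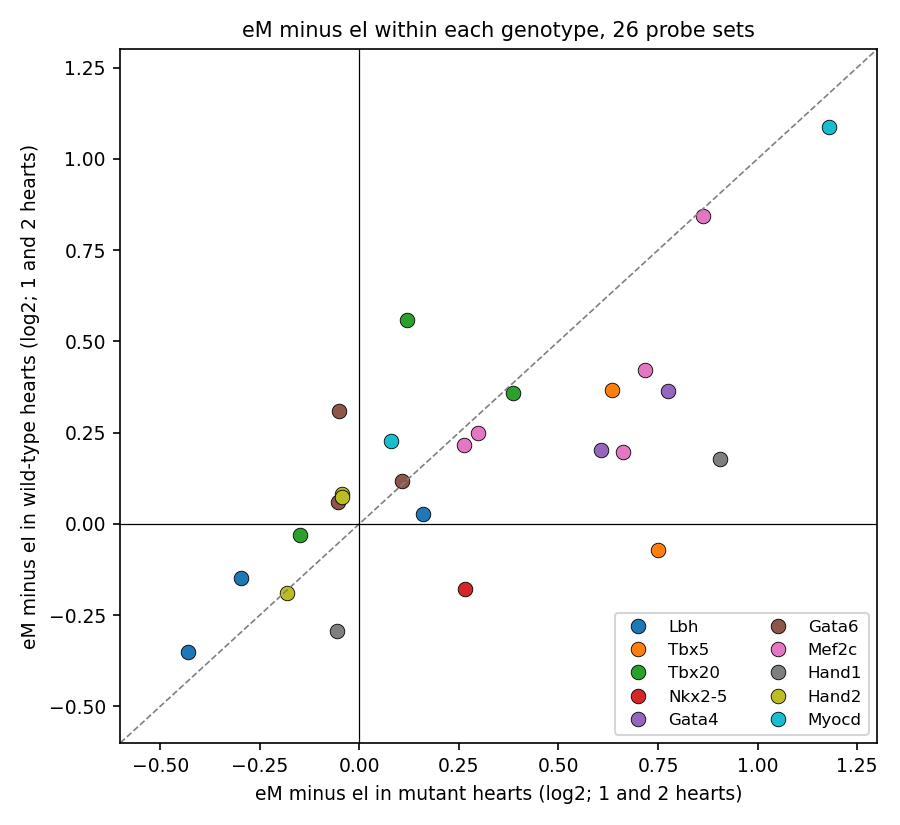
Log2 difference, eM minus eI, within mutant hearts (horizontal axis) and within wild-type hearts (vertical axis) for the 26 probe sets, coloured by gene, with the line of equal differences dashed; each difference sets 1 eM heart against 2 eI hearts. Myocd 1425978_at (1.18 and 1.09) and Mef2c 1451506_at (0.86 and 0.84) lie near the line, and Hand1 1417525_at (0.91 and 0.18) and Tbx5 1425694_at (0.75 and -0.07) lie farthest below it.

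Markers of other cell types moved with the letters, and their part in these differences was not tested. The mean level of 4 macrophage markers was 5.63 to 5.66 in eM hearts, against 6.47 to 7.06 in eI hearts, with all 4 lower in eM. Erythroid markers averaged 10.52 to 10.54 in eM, against 11.22 to 12.22 in eI (4 of 4 lower), and liver and endoderm markers 5.33 to 5.54 in eM, against 6.66 to 8.39 in eI (6 of 6 lower). Fibroblast and valve markers averaged 8.79 to 9.67 in eM, against 10.01 to 10.38 in eI, with 5 of 6 lower. Smooth muscle markers averaged 11.09 to 11.17 in eM, against 10.70 to 10.84 in eI, with 3 of 4 higher. Atrial markers, a list that holds Tbx5, averaged 8.42 to 8.44 in eM, against 8.53 to 8.89 in eI, with 3 of 6 lower. Ventricular markers averaged 11.82 to 11.84 in eM, against 11.57 to 11.77 in eI, with 3 of 5 higher. The 2 neural crest markers measured averaged 8.40 to 8.46 in eM, against 8.71 to 9.05 in eI, both lower, and the 2 of the second heart field 5.83 to 6.87 in eM, against 5.47 to 5.89 in eI. Cardiomyocyte and endothelial marker means were close, at 13.61 to 13.66 and 9.29 to 9.33 in eM, against 13.57 to 13.60 and 9.26 to 9.34 in eI. The cardiomyocyte list holds Nkx2-5, and 3 of its 7 genes were higher and 4 lower in eM. Of these Myh6 was called, higher in eM by 0.67. By genotype, 8 of 8 epicardial markers were higher in mutant hearts, where their mean was 8.72 to 8.89, against 8.38 to 8.77 in wild-type hearts. In mutant hearts 4 of 4 erythroid, 2 of 2 neural crest and 5 of 6 atrial markers were higher too. Lower there were 5 of 6 liver and endoderm markers and 5 of 6 fibroblast and valve markers. The remaining lists held genes of both directions, and no marker of any list was called by genotype. No marker can be called absent, since these intensities have no zero.

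Other cardiac factors and cofactors followed the letters in both directions. Each gene of these lists was taken at its brightest probe set, and among all 13572 such genes 4.3% were called higher and 5.7% lower in eM. Of 37 measured genes of this list 6 rose in eM, 2 fell and the rest did not pass, with a median of 0.11, against -0.03 over all genes. Those that rose included Gata5, the endocardial GATA factor (0.51), Hey1, a Notch target (0.70), and Tbx18, of the epicardium and sinus horn (0.69). Ankrd1, a stress-responsive cofactor of the sarcomere, fell by 1.03. By genotype 0 of the 37 were called, with 21 higher and 16 lower in mutant hearts. Partners of the core factors gave small differences between mutant and wild-type hearts, at -0.003 for Mef2a, 0.10 for Srf, -0.09 for Zfpm2 (the Gata4 cofactor FOG2), -0.14 for Hopx, -0.02 for Irx4 and 0.19 for Hey2. Isl1, of the second heart field, read 5.67, 5.19 and 5.40 in mutants 1, 2 and 3, against 4.96, 5.48 and 7.61 in wild-types 1, 2 and 3, so wild-type 3 alone stood high.

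Genes that the core factors are known to activate were not called by genotype and moved both ways by letters. Of 35 measured, 27 were lower and 8 higher in mutant hearts, none was called, and their median of -0.04 compared with 0.003 over all genes. Nppa, the atrial natriuretic peptide gene and a shared target of Nkx2-5, Tbx5 and Gata4, differed by -0.03 between genotypes and by -0.25 between eM and eI hearts (adjusted p = 0.133). Nppb, its neighbour encoding the B-type peptide, read 12.57, 12.50 and 12.45 in mutants 1, 2 and 3, against 12.70, 13.05 and 12.67 in wild-types 1, 2 and 3, lower in every mutant heart (difference -0.30). By letters 4 rose, Ttn, titin (1.64), Ryr2, the calcium release channel (0.76), Myh6, the alpha myosin heavy chain (0.67), and Des, desmin (0.45). The 4 that fell were Mb, myoglobin (-2.44), Ckm, muscle creatine kinase (-1.18), Pln, phospholamban (-0.75), and Gja1, a gap junction protein (-0.55).

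Of 14 smooth muscle genes under myocardin and serum response factor, Tagln (1.19) and Synm (0.68) rose in eM and the other 12 did not pass, with a median of 0.02. None was called by genotype, with 6 higher and 8 lower in mutant hearts. Lbh is a target of Wnt signalling in mammary cells, and among 12 measured Wnt target genes Dkk1 (0.76) and Ccnd2 (1.00) rose and Apcdd1 (-0.55) and Notum (-0.56) fell in eM. Those 12 were split 6 and 6 by genotype with a median of 0.01 and 0 calls. Bone morphogenetic proteins help to induce Nkx2-5, and of 18 genes of that pathway Bmp5 (0.73), Msx2 (0.81) and Msx1 (0.54) rose in eM, with 6 higher and 12 lower and none called by genotype.

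Genes whose levels ran most like Lbh 1451629_at were found by Pearson correlation over the 6 hearts, among 8076 genes with an SD of at least 0.5 times its own. Closest were Jakmip1 (r = 0.985), Dhdh (0.981), Selenos (0.954), Pik3ca (0.933) and Actl9 (0.927). Jakmip1 and Dhdh were dim, at 5.63 to 5.68 and 5.21 to 5.28 in mutant hearts, against 6.01 to 6.05 and 5.51 to 5.58 in wild-type hearts. Most opposite were Mfsd8 (-0.960), Hmox1 (-0.954), Fzd6 (-0.951), Hspa1b (-0.942) and Shox2 (-0.933). None of the other 9 core factors was in either group. All 10 followed the same split of 3 hearts from 3 by genotype.

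For Myocd the same search over 1809 genes gave Grip1 (r = 0.998), Rasa2 (0.998), Kitl (0.992), Inf2 (0.992) and Cacna1h (0.990) as most like, and Aplnr (-0.994), Acot6 (-0.988), Gnb3 (-0.987), Abca9 (-0.983) and Sox18 (-0.980) as most opposite. All 10 were apart by letters, as in Cacna1h, a T-type calcium channel, at 10.20 and 10.17 in the eM hearts, against 9.20 to 9.40 in the eI hearts. The same split of 2 hearts from 4 underlies each of these correlations, so they describe the 6 arrays.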

How the data were processed

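RNA of 6 hearts was labelled as biotinylated cRNA and hybridised to Affymetrix mouse arrays, according to the labels' protocols. RMA (robust multi-array average; version not stated) is the method that the submitters' processing notes name for the deposited log2 intensities. These ran from 2.42 to 14.79. Scanner files were not used here, so level above background is unknown, and the number of arrays limits precision. Each array was taken as 1 mouse, since the design text speaks of 6 mice. Groups and replicate numbers came from the titles, and letters from the descriptions.

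Of 45101 probe sets, 64 controls and the 40% of lowest mean (below 5.38) were left out, leaving 27022. The platform annotation gave 34945 probe sets 1 gene, 932 several and 9160 none, and 0 symbols changed against RefSeq of GRCm38.p6. The genotype fit used limma 3.58.1 under R 4.3.3 (lmFit, eBayes; two-sided, adjusted by Benjamini-Hochberg, threshold 0.05). Letters were tested with genotype as a term, and the interaction with both. The fits were run on 10 simulated sets with differences added at 200 probe sets each. The genotype fit called 0% of those of 0.5 log2 and 16.4% of those of 1 log2. The letters fit called 0.7% and 43.1% of them. An absence of genotype calls thus does not show that no level differed. Figures used matplotlib 3.10.9 in Python 3.11.15.

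All members were named at every probe set. By rule, 10 partner and target genes, up to 2 genes per list and fit with the smallest p, and the 5 genes most like and 5 most unlike Lbh and Myocd could be named. Other list genes called by letters were named after their values were seen. Members and lists were chosen with earlier results of these data known. Same-numbered hearts deviated together from their group means (correlations 0.18, 0.36 and 0.74), so a fit with the title number as a block was run beside the genotype fit, which has no block and gave the printed values, although mutant 2 and wild-type 1 (0.49) and mutant 1 and wild-type 2 (0.47) correlated more than their own pairs. Alternatives were other filters, normalizations, variance models, gene-level summaries, blocks and thresholds, and each heart left out.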

Additional observations from a re-analysis of the deposited data

How the results depend on the processing

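The count of genotype calls was 0 with no filter, with 60% of probe sets left out, with quantile normalization, median centring, trend and robust moderation, array weights, a threshold of 0.1, either gene-level summary, the letters as a fixed or random block, the eI hearts alone and the Xist covariate. It was 0 with the replicate block too, which changed no call, and it ranged from 0 to 2 when each heart was left out, with 2 without mutant 2 and 1 without wild-type 3, none of them among the 26 probe sets. Calls by letters numbered 3160 and fell to 1397 with 1 brightest probe set a gene, to 1711 with the mean of a gene's probe sets (both test fewer features) and to 1114 with the Xist covariate, and were 5343 at a threshold of 0.1. Leaving out each heart gave 1 to 4333, with 1208 without mutant 1, 815 without mutant 2, 1 without mutant 3 and 1263 without wild-type 3. Over 20 alternatives the Lbh difference between genotypes stayed between -0.58 and -0.41 wherever 1451629_at itself was fitted. It was -0.19 for the mean of the Lbh probe sets. By letters Mef2c 1451506_at stayed between 0.82 and 0.86 over 16, and 13 of the 14 that gave a test passed the threshold, the exception being the fit without mutant 3. Of the tested alternatives 9 of 14 passed for Mef2c 1421028_a_at and 10 of 16 each for Tbx5 1425695_at and Gata4 1418863_at. Those 16 include the fit to the mean of a gene's probe sets, which does not read the named probe set alone. That fit missed the threshold for Tbx5 (limma adjusted p = 0.0915) and passed for Gata4 (0.0411). Signs turned only among differences that were not called, and the cause was not tested. Among the Lbh genotype values, which carry no test, 1429088_at (-0.13) became 0.013 with array weights and ranged from -0.27 to 0.0096 as each heart was left out, and 1425208_at (0.07) became -0.038 with the Xist covariate and -0.033 between the eM hearts alone and ranged from -0.073 to 0.16. By letters Lbh 1429088_at passed the threshold under 3 of 14 tested alternatives. Between the eM hearts alone, 10 genotype differences had the opposite sign to that over all hearts, as had 4 letters differences within mutant and 2 within wild-type hearts. With array weights, mutant minus wild-type became 0.022 for Tbx20 1422219_a_at, -0.050 for Gata4 1418863_at, -0.025 for Mef2c 1451507_at, -0.013 for Hand2 1422221_at and -0.035 for Myocd 1425808_a_at, and eM minus eI became -0.012 for Gata6 1425464_at and -0.016 for Hand2 1422221_at. Quantile normalization gave -0.019 for Gata6 1425464_at by letters. With the mean of a gene's probe sets the genotype difference was -0.022 for Tbx20, 0.033 for Gata6, -0.0051 for Hand2 and 0.0063 for Myocd, and the letters difference -0.17 for Lbh and -0.051 for Hand2. In the eI hearts alone mutant minus wild-type was 0.013 for Tbx20 1422219_a_at and -0.0077 for Gata4 1418863_at. With the Xist covariate it was -0.0034 for Tbx20 1453351_at, -0.21 for Gata4 1418863_at, -0.034 for Gata6 1425463_at, -0.064 for Mef2c 1451507_at and 0.036 for Hand2 1443854_at. Leaving out each heart in turn, the differences whose sign turned ranged by genotype from -0.13 to 0.31 for Gata4 1418863_at, -0.036 to 0.21 for Gata6 1443081_at, -0.36 to 0.12 for Hand1 1417525_at, -0.052 to 0.055 for Hand2 1422221_at, -0.13 to 0.023 for Hand2 1443854_at, -0.14 to 0.023 for Mef2c 1424852_at, -0.51 to 0.058 for Mef2c 1451506_at, -0.036 to 0.15 for Mef2c 1451507_at, -0.090 to 0.17 for Myocd 1425808_a_at, -0.46 to 0.30 for Myocd 1425978_at, -0.085 to 0.023 for Tbx20 1422219_a_at, -0.11 to 0.30 for Tbx20 1453351_at and -0.27 to 0.14 for Tbx5 1425694_at, and by letters from -0.055 to 0.059 for Gata6 1425464_at, -0.052 to 0.31 for Gata6 1443081_at, -0.043 to 0.072 for Hand2 1422221_at, -0.043 to 0.082 for Hand2 1436041_at, -0.18 to 0.27 for Nkx2-5 1449566_at and -0.071 to 0.75 for Tbx5 1425694_at.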
